A study of Mus musculus with 20 samples.

Results

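The 9 genes described here, Fabp7, Kcnj10, Glul, Apoe, Gja1, Slc1a3, Ptn, Ednrb and Gfap, are markers of satellite glia, and were taken by name from the 55416 gene rows of each count table. All 9 had a row, and all 9 passed the filter on low counts that left 17931 genes for testing. RNA was sequenced from lumbar dorsal root ganglia (L3, L4 and L5) of 10 adult C57Bl6 mice, with a noninjected and a formalin library from each animal. In all animals both Prdm12 alleles were floxed (P12 Fl/Fl) and tamoxifen (TAM) had been given a month before. The genotype of the knockout animals is listed as AdvCreERT2; P12 Fl/Fl TAM, an inducible Cre named for advillin, while the series text names Rosa26CreERT2 as the driver, and no Cre is listed for the controls. The sources used here do not give the dose of formalin, the time between formalin and dissection, or any pooling of animals.

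Satellite glia are the flat cells that wrap each neuron body in a sensory ganglion. They take up potassium and glutamate from the narrow space around the neuron, are joined to each other by gap junctions, and share a neural crest origin and many transcripts with Schwann cells. After peripheral inflammation or nerve injury they are known to alter coupling, potassium handling and Gfap.

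The record of genotype differs between the sample titles and the deposited names for 4 of the 10 animals. Groups follow the deposited name here and are called control-named (female160, female162 and female165, male122 and male126) and icKO-named (female159 and female161, male124, male159 and male174). The sources do not say which record is right. Titles give female162 and female165 as knockout and female159 and male124 as control. Prdm12, the floxed gene, was between 73.1 and 114 CPM (counts scaled to 1000000 per library) in the 10 control-named libraries and between 14.4 and 38.1 CPM in the 9 icKO-named libraries used, so these groups did not overlap. It fell by 1.70 (SE 0.20) in noninjected and by 2.19 (SE 0.22) in formalin libraries on the log2 scale (adjusted p = 8.09e-05 and 1.72e-05). Unless DESeq2 or a permutation test is named, adjusted p-values come from the quasi-likelihood F test of edgeR. They were adjusted by Benjamini and Hochberg's method over the genes tested. With the titles as groups no gene passed in either genotype comparison, Prdm12 included (adjusted p = 0.682 and 0.639). The formalin library of female161 held 2829 counts and was left out, and the other 19 held 11763893 to 22392635. Nothing beyond the animal numbers says that animals are independent litters or cohorts, so p-values measure the spread between these samples.

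The label of the gene set was checked against other cell types. Each member was detected in each of the 19 libraries, from 20 counts (Gfap) to 86581 counts (Apoe). Of 8 markers of central nervous system glia, the oligodendrocyte genes Olig1, Olig2, Mog and Opalin were listed at 0 in 4, 13, 3 and 10 libraries and reached at most 0.52 CPM (Mog). The other 4 genes of that list were detected in all 19 libraries. The oligodendrocyte gene Mobp was at 0.95 to 11.9 CPM and the microglial gene Tmem119 at 2.23 to 13.3 CPM, both highest in the male174 formalin library. Aqp4 and Gpr37l1 were at 11.2 to 22.4 and 55.3 to 72.3 CPM. The cells behind the Aqp4 and Gpr37l1 values cannot be told in whole ganglia, so these values are no evidence of central glia. Schwann cell markers were present in all libraries, with a summed level of 4695 to 7146 CPM over 15 genes. Several members are also expressed by Schwann cells, and Apoe by macrophages, so a level in whole ganglia is not the level of satellite glia alone. In bulk tissue fewer cells of a type and less RNA per cell cannot be told apart.

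The start regions of Fabp7, Ptn and Gja1 are shown because these are the 3 members with an unadjusted p under 0.05 between genotypes in noninjected ganglia. The sequences are RefSeq's, from GRCm38.p6, and run 5′ to 3′ on the gene's strand from 250 bases before to 50 after the annotated start. Capitals mark the CCAAT box (CCAAT, or ATTGG on the other strand), the only one of 5 searched words found in them. Fabp7 is at chr10:57784673-57784972 (plus strand), Ptn at chr6:36810130-36810429 (minus strand) and Gja1 at chr10:56377050-56377349 (plus strand).
Fabp7: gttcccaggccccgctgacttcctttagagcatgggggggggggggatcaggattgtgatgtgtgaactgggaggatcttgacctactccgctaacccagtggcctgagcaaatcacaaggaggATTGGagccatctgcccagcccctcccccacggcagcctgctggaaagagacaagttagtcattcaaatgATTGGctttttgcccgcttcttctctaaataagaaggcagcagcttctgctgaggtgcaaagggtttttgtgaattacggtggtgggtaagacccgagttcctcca
Ptn: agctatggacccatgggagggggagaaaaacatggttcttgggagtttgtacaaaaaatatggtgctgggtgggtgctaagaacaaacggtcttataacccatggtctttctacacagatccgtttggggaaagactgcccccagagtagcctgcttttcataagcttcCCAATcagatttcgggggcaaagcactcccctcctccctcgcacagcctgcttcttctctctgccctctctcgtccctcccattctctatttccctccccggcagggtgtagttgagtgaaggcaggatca
Gja1: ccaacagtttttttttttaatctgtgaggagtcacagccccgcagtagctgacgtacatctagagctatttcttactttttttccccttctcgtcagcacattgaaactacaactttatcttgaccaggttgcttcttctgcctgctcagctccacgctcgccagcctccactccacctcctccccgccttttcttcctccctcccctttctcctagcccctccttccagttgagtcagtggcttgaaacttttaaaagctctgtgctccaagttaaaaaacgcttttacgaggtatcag
The Fabp7 window held the word at 2 places, both in the reverse orientation, the Ptn window at 1 and the Gja1 window at none. Of 32851 windows of the same length in the table, 37.4% held it on either strand. The other words, searched on both strands too, were TATAAA (13.6% of windows), AACAAT (10.7%), GTGGGAA (6.38%) and CAGCTG (16.3%). A match describes letters and is no evidence of binding.

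Between genes, levels were compared per kilobase of annotated exon in the 10 noninjected libraries, 1 per animal. Apoe, the lipid carrier protein, stood highest at 1570 ± 178 CPM per kilobase (SD, n = 10). Fabp7, the brain-type fatty acid binding protein of immature and satellite glia, followed at 309 ± 119. Glul, glutamine synthetase, which converts glutamate taken up from neurons into glutamine, was at 78.5 ± 9.39. Ptn, the secreted growth factor pleiotrophin, was at 50.8 ± 7.51, and Ednrb, the endothelin B receptor, at 17.7 ± 2.64. Kcnj10, which encodes the inward rectifier potassium channel Kir4.1, was at 8.50 ± 1.75. Slc1a3, the glutamate transporter GLAST, and Gja1, the gap junction protein connexin 43, were close to each other at 2.26 ± 0.37 and 2.24 ± 0.41. Gfap, the intermediate filament protein of astrocytes and reactive glia, was lowest at 0.84 ± 0.46. Each gene in this order was above the next in 10 of 10 libraries except Slc1a3, which was above Gja1 in 5 of 10, so that the order of this pair did not exceed its spread.

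**Figure D1:**
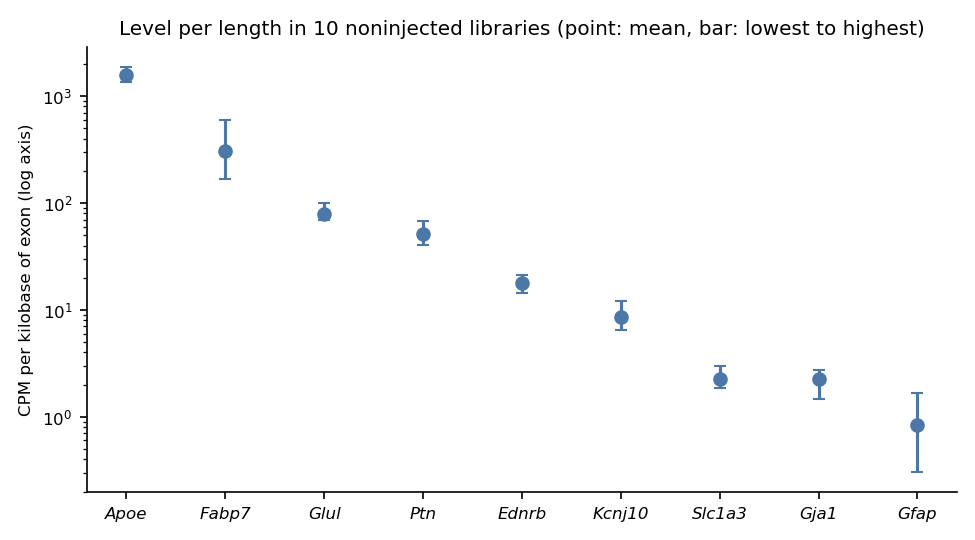
Level of each marker in the 10 noninjected libraries, in CPM per kilobase of exon on a log axis, with the mean as a point and a bar from the lowest to the highest library. Apoe is highest at 1570, Gfap is lowest at 0.84, and only Slc1a3 and Gja1 change order between libraries. The bars of Gja1 (1.48 to 2.74) and Gfap (0.30 to 1.685) also overlap.

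Within a gene, the members varied from library to library by different amounts. Over the 19 libraries, Apoe ranged 1.58-fold (2524 to 3977 CPM), Kcnj10 1.85-fold, Glul 1.92-fold, Ednrb 1.93-fold, Ptn 1.97-fold and Gja1 2.07-fold. Slc1a3 ranged 2.47-fold (14.2 to 35.0 CPM) and Fabp7 3.54-fold (209.5 to 742 CPM). Gfap ranged 5.57-fold, from 1.28 to 7.13 CPM, on 20 to 137 counts per library. The highest value of Glul, Gja1, Slc1a3, Ptn, Ednrb and Gfap was in 1 library, the formalin library of male174. The noninjected library of male122 held the highest Fabp7 and the male122 formalin library the highest Kcnj10.

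**Figure D2:**
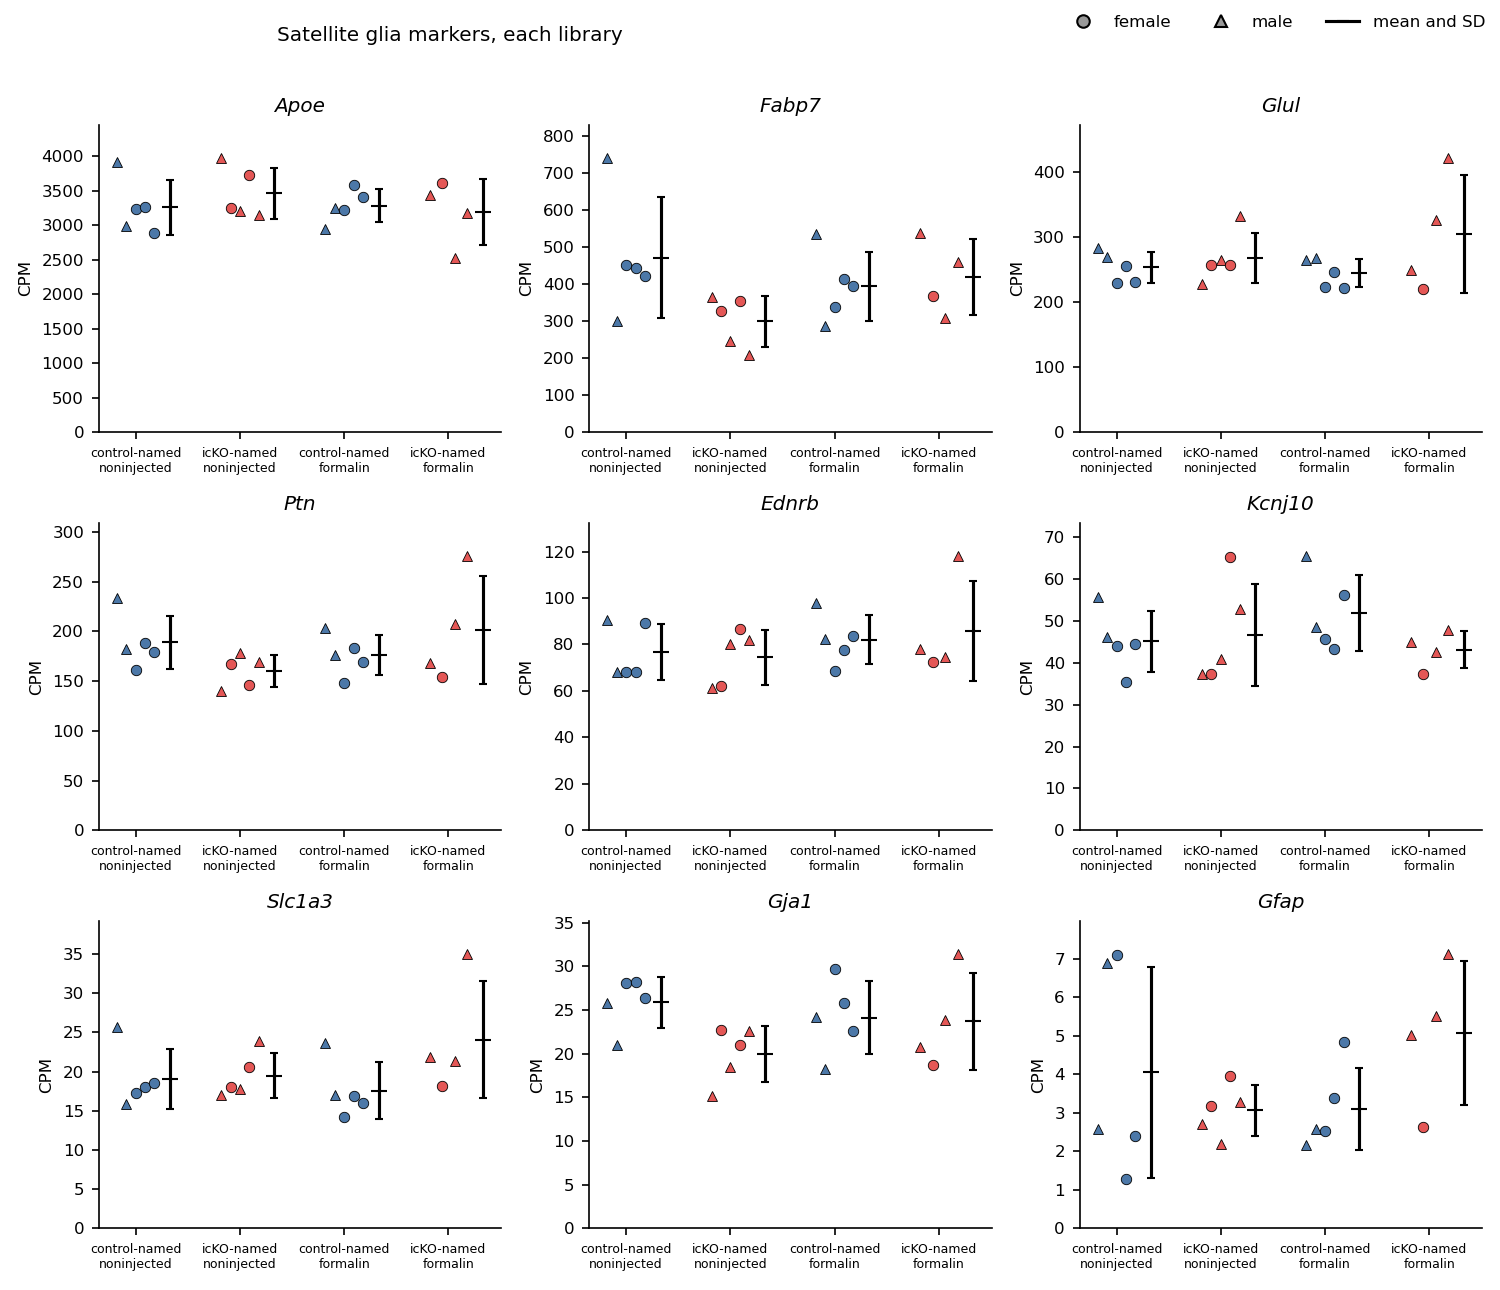
CPM of each marker in each of the 19 libraries, by group, with females as circles, males as triangles, and the group mean with SD beside the points. No marker separates the genotypes in either condition, and the male174 formalin library is the top triangle for Glul (422.5 CPM), Ptn (276 CPM), Ednrb (118 CPM) and Slc1a3 (35.0 CPM).

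The first comparison asked whether the markers differ with Prdm12 loss in noninjected libraries, 5 icKO-named against 5 control-named. In edgeR 0 of 9 members passed the threshold of an adjusted p of 0.05 (3 with an unadjusted p under 0.05, and DESeq2 called 1), against 8.39% of all genes tested (1504 of 17931, 863 higher and 641 lower in icKO-named). Over all genes, 4732 of 17931 had an unadjusted p under 0.05 in edgeR. The members' median log2 difference was -0.07, beside -0.01 over all genes, and 3 of 9 were positive. Fabp7, Gja1 and Ptn had the smallest p-values, all with lower means in icKO-named animals. No member's groups were free of overlap, while 8.24% of all genes did not overlap.

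Noninjected Fabp7 was at 451, 444, 421, 742 and 300.5 CPM in female160, female162 and female165 and male122 and male126, the control-named animals. It was at 328, 354, 364, 245 and 209.5 CPM in female159 and female161 and male124, male159 and male174. The lowest control-named value, male126, lay inside the icKO-named range, and the other 4 lay above it. The means were 472 ± 163 and 300.1 ± 69.0 CPM (SD, n = 5 and 5). The log2 difference was -0.66 (SE 0.23, a fold of 0.634), with an unadjusted p of 0.0124 and an adjusted p of 0.0862 in edgeR over all genes. DESeq2 called Fabp7 at an adjusted p of 0.0346, and so did edgeR without male126 (log2 difference -0.81, adjusted p = 0.0325). Over 20 alternatives the log2 difference ran from -0.88 to -0.25 and the adjusted p from 5.55e-10 to 0.763. The 5.55e-10 came from edgeR without the low count filter, where the log2 difference was -0.655. In the other alternatives the smallest adjusted p was 0.0325.

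Gja1 was at 28.1, 28.1, 26.4, 25.8 and 20.9 CPM in the same control-named order and at 22.7, 21.0, 15.2, 18.4 and 22.6 CPM in the icKO-named. As for Fabp7, male126 was the control-named value inside the other range. The log2 difference was -0.35 (SE 0.15), with an adjusted p of 0.136 in edgeR, and without male174 it was -0.41 with an adjusted p of 0.0432. Over 20 alternatives the log2 difference of Gja1 ran from -0.43 to 0.30 and the adjusted p from 0.0425 to 0.992, and 2 of the 20 called it. Ptn was at 188, 179, 233 and 183 CPM in female162, female165, male122 and male126, with a mean of 189 ± 26.7 CPM over all 5 control-named animals (SD, n = 5), and at 167, 146, 140.0, 178.5 and 169 CPM in icKO-named animals. The lowest control-named animal, female160, was below 3 of the icKO-named animals, and the log2 difference was -0.27 (SE 0.12, adjusted p = 0.153 in edgeR). The log2 difference of Ptn ran from -0.33 to 0.12 over the 20 alternatives, with 1 of them past the threshold.

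The members of the glutamate and potassium system differed little in means. Glul was at 254 ± 23.5 and 268 ± 38.9 CPM in control-named and icKO-named animals (SD, n = 5 and 5), Slc1a3 at 19.1 ± 3.79 and 19.5 ± 2.86, and Kcnj10 at 45.2 ± 7.27 and 46.7 ± 12.2 CPM. Their 95% intervals of the log2 difference were -0.22 to 0.29, -0.35 to 0.32 and -0.29 to 0.35. Apoe was at 3256 ± 401 and 3458 ± 371 CPM (interval -0.13 to 0.32) and Ednrb at 76.8 ± 11.9 and 74.4 ± 11.8 CPM (interval -0.37 to 0.22). Gfap was at 4.05 ± 2.74 and 3.06 ± 0.66 CPM, with the widest interval, -1.25 to 0.42. In control-named animals Gfap lay at 7.11 and 6.90 CPM in female160 and male126 and at 1.28 to 2.57 CPM in the other 3.

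Markers of other cell types were read beside these values. Of 11 macrophage markers 0 passed and 0 had a positive difference (median log2 difference -0.39), and their summed level was 423 to 733 CPM in control-named and 325 to 499 CPM in icKO-named animals. Of 15 Schwann cell markers 1 rose and 3 fell, with a median of -0.17 and a summed level of 6055 to 7146 against 4821 to 6614 CPM. Of 12 neuron markers 1 rose (Syt1) and 9 were positive, with a median of 0.26. Erythroid markers were positive in 7 of 7, with a median of 1.04. Their summed level was 139.5 to 351 CPM in control-named and 221 to 777 CPM in icKO-named animals. Neutrophil markers were positive in 7 of 7 (median 1.00) and skeletal muscle markers in 1 of 8 (-0.58). Fibroblast markers were positive in 4 of 8 and endothelial markers in 1 of 8 (both -0.15). No erythroid, neutrophil, skeletal muscle, fibroblast or endothelial marker passed. Of all genes, 8.39% were called in this comparison. The part of these markers in the lower means of Fabp7, Gja1 and Ptn was not tested.

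The second comparison set 4 icKO-named formalin libraries against 5 control-named ones. In edgeR 0 of 9 members passed (1 with an unadjusted p under 0.05, and DESeq2 called 0), against 3.89% of all genes (697 of 17931, 511 higher and 186 lower in icKO-named), and 7 of 9 members were positive with a median log2 difference of 0.07, beside -0.01 over all genes. An unadjusted p under 0.05 in edgeR was found for 3332 of the 17931 genes. No member's groups were free of overlap, against 5.79% of all genes. Fabp7, lower in mean in noninjected icKO-named animals, was at 394 ± 94.0 CPM in control-named and 419 ± 102 CPM in icKO-named formalin libraries (SD, n = 5 and 4; log2 difference 0.07, SE 0.25).

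Slc1a3 had the smallest p, at 14.2, 16.9, 16.0, 23.7 and 17.0 CPM in female160, female162 and female165 and male122 and male126, and at 18.1, 21.9, 21.3 and 35.0 CPM in female159 and male124, male159 and male174. The male122 library was above 3 of the icKO-named animals. The log2 difference was 0.37 (SE 0.17), with an adjusted p of 0.258 in edgeR, and it was 0.17 without the male174 formalin library. Glul was at 224, 246, 221.5, 265 and 269 CPM in control-named and at 220.4, 250, 327 and 422.5 CPM in icKO-named libraries. Only male159 and male174 exceeded the control-named range, and the log2 difference was 0.22 (SE 0.13, adjusted p = 0.392 in edgeR). It was -0.07 without the formalin libraries of both these males, an alternative chosen after the data were seen. Kcnj10 went the other way, at 51.9 ± 9.09 CPM in control-named and 43.2 ± 4.40 CPM in icKO-named libraries (SD, n = 5 and 4; log2 difference -0.31, SE 0.17, adjusted p = 0.334 in edgeR).

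In the 6 animals whose title and deposited name give the same genotype, 3 control and, with formalin, 2 icKO, Glul and Gfap were past the threshold in formalin libraries. There 9.14% of all genes were called (1615 of 17669). The log2 difference was 0.50 for Glul (SE 0.13, adjusted p = 0.0334) and 1.53 for Gfap (SE 0.36, adjusted p = 0.0225) in edgeR. The icKO libraries of that comparison are those of male159 and male174, with Gfap at 5.51 and 7.13 CPM against 2.52, 2.17 and 2.57 CPM in female160 and male122 and male126.

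The formalin libraries of male159 and male174 also held the highest summed levels of several markers of other tissues. The summed level of 8 skeletal muscle markers reached 2165 CPM in the male174 formalin library, against 60.5 to 104 CPM in control-named formalin libraries, and fibroblast markers 6313 against 1432 to 2489 CPM. Erythroid markers reached 1741 CPM there, against 134 to 318 CPM in control-named formalin libraries. Neutrophil markers reached 3256 CPM in the male159 formalin library, against 178 to 844 CPM. Of these lists 3 of 8 muscle, 1 of 8 fibroblast, 6 of 7 erythroid and 3 of 7 neutrophil markers rose, and so did 1 of 11 macrophage markers and 1 of 4 tested markers of central nervous system glia (Mobp, at most 11.9 CPM), while 0 of 8 endothelial markers passed. Their part in the Glul, Slc1a3 and Gfap values was not tested.

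**Figure D3:**
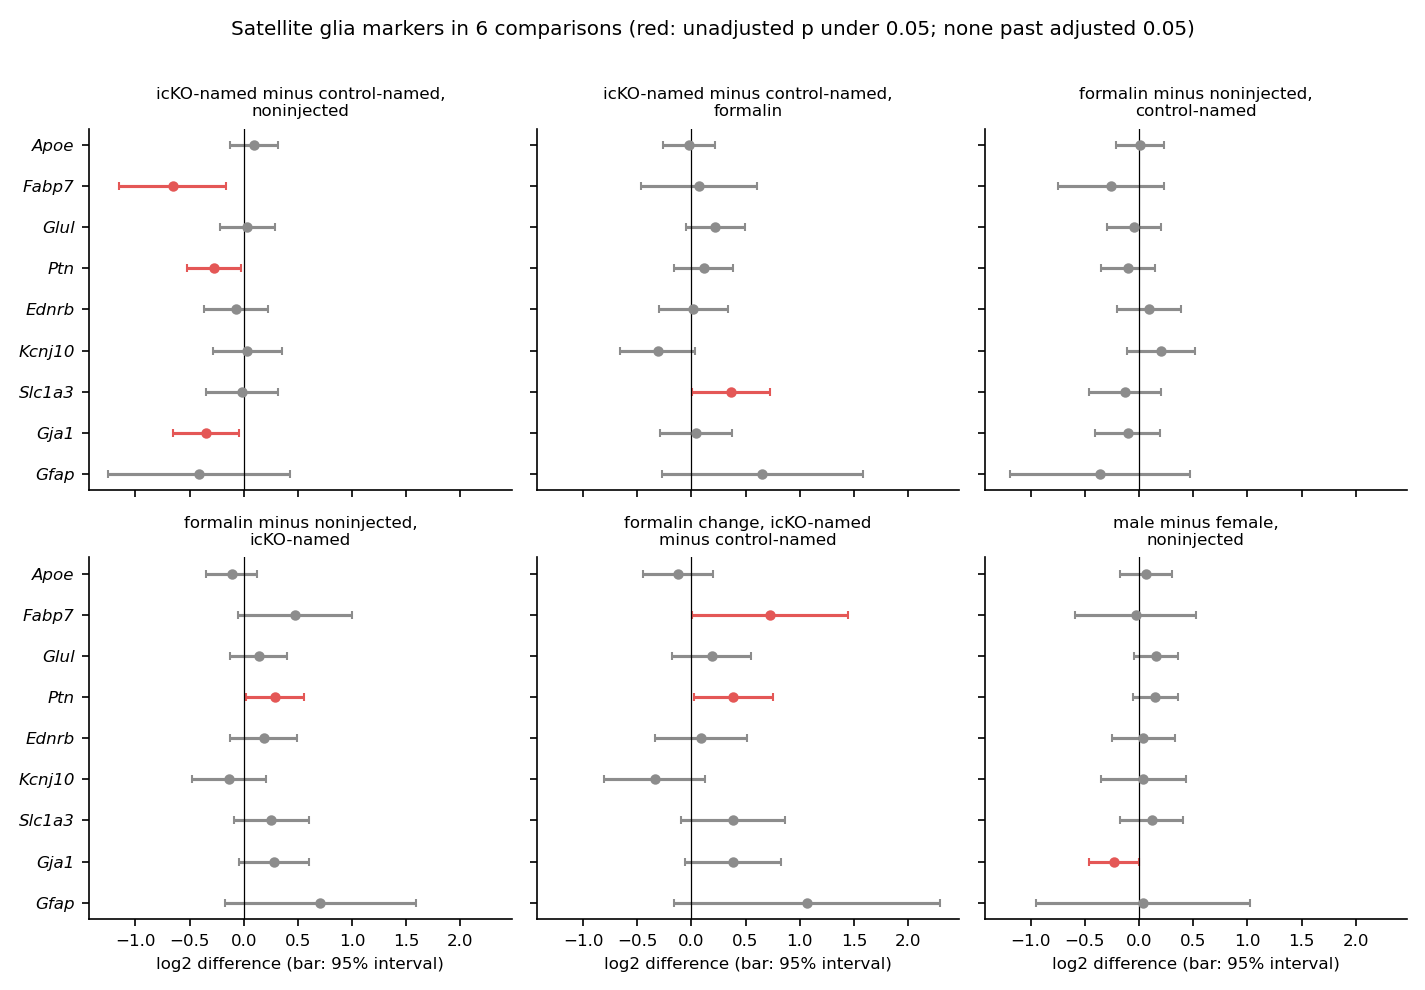
Log2 difference of each marker with its 95% interval in the 6 comparisons, with unadjusted p under 0.05 in red. Fabp7 lies at -0.66 between genotypes in noninjected libraries and at 0.07 in formalin libraries, and no point passes an adjusted p of 0.05.

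Formalin was compared with noninjected libraries within each named genotype. In control-named animals 0 members and 0 genes passed in edgeR (0.0% of 17931; 686 genes with an unadjusted p under 0.05, and DESeq2 called 2). No member had an unadjusted p under 0.05, and the members' median log2 difference was -0.10, with 3 of 9 positive. In icKO-named animals 0.0% of genes passed as well (4170 with an unadjusted p under 0.05, and DESeq2 called 1106, none of them a member). There 1 member, Ptn, had an unadjusted p under 0.05 (0.0368), and the members' median was 0.26, beside 0.02 over all genes, and 7 of 9 were positive. Both comparisons use the noninjected libraries of the genotype comparison, so the values are not independent of it. The fit has no term for the animal. With the animal as a block in edgeR, 5 members had an unadjusted p under 0.05 in icKO-named animals, beside 3499 of 19023 genes. In control-named animals 1 member did, beside 1353 genes, and 0 genes passed in either.

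Each animal's own formalin and noninjected libraries were set against each other. Fabp7 was lower with formalin in 5 of 5 control-named animals, at 338, 415 and 394 CPM in female160, female162 and female165 and 536 and 287 CPM in male122 and male126. It was higher with formalin in 4 of 4 icKO-named animals, at 369, 539, 307 and 460 CPM in female159 and male124, male159 and male174. The mean log2 change within animals was -0.23 ± 0.20 in control-named and 0.55 ± 0.42 in icKO-named animals (SD, n = 5 and 4). Of all genes tested, 0.948% moved down in all of the former and up in all of the latter (170 of 17931), and 1.07% the reverse (191).

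The difference of these changes was tested as an interaction, in which Fabp7 and Ptn had an unadjusted p under 0.05. In edgeR 0 genes passed (0.0% of 17931; 4201 with an unadjusted p under 0.05, and DESeq2 called 793, none of them a member). For Fabp7 the interaction was 0.73 (SE 0.34; unadjusted p = 0.0484, adjusted p = 0.211 in edgeR). With the animal as a block it was 0.77 (SE 0.18; unadjusted p = 0.000797, adjusted p = 0.0892 in edgeR), and it was 0.69 without the male174 formalin library (SE 0.37; adjusted p = 0.377 in edgeR). In the fit with the animal as a block, 4 members had an unadjusted p under 0.05, beside 4084 of 19023 genes, and 0 genes passed.

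Ptn was lower with formalin in 5 of 5 control-named animals and higher in 3 of 4 icKO-named, and its interaction was 0.39 (SE 0.17; adjusted p = 0.195 in edgeR). It moved from 169 to 276 CPM in male174, and its interaction was 0.22 without that library. Glul was lower in 5 of 5 control-named animals, by a mean of -0.05 ± 0.04 (log2, SD, n = 5), and higher in 3 of 4 icKO-named. Slc1a3 was higher with formalin in 4 of 4 icKO-named animals and in 1 of 5 control-named, and Gja1 in 3 of 4 and 1 of 5. Kcnj10 was higher in 5 of 5 control-named animals, by a mean of 0.20 ± 0.13 (log2, SD, n = 5), and in 3 of 4 icKO-named. Apoe was higher in 3 of 5 and 2 of 4, Ednrb in 4 of 5 and 3 of 4, and Gfap in 2 of 5 and 3 of 4. Some counted moves were close to nil. Glul changed by -0.001 in male126, Slc1a3 by 0.005 in female159, and Kcnj10 went from 37.43 to 37.44 CPM in female159. The share of all genes moving the same way in 5 of 5 or 4 of 4 animals was not computed.

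**Figure D4:**
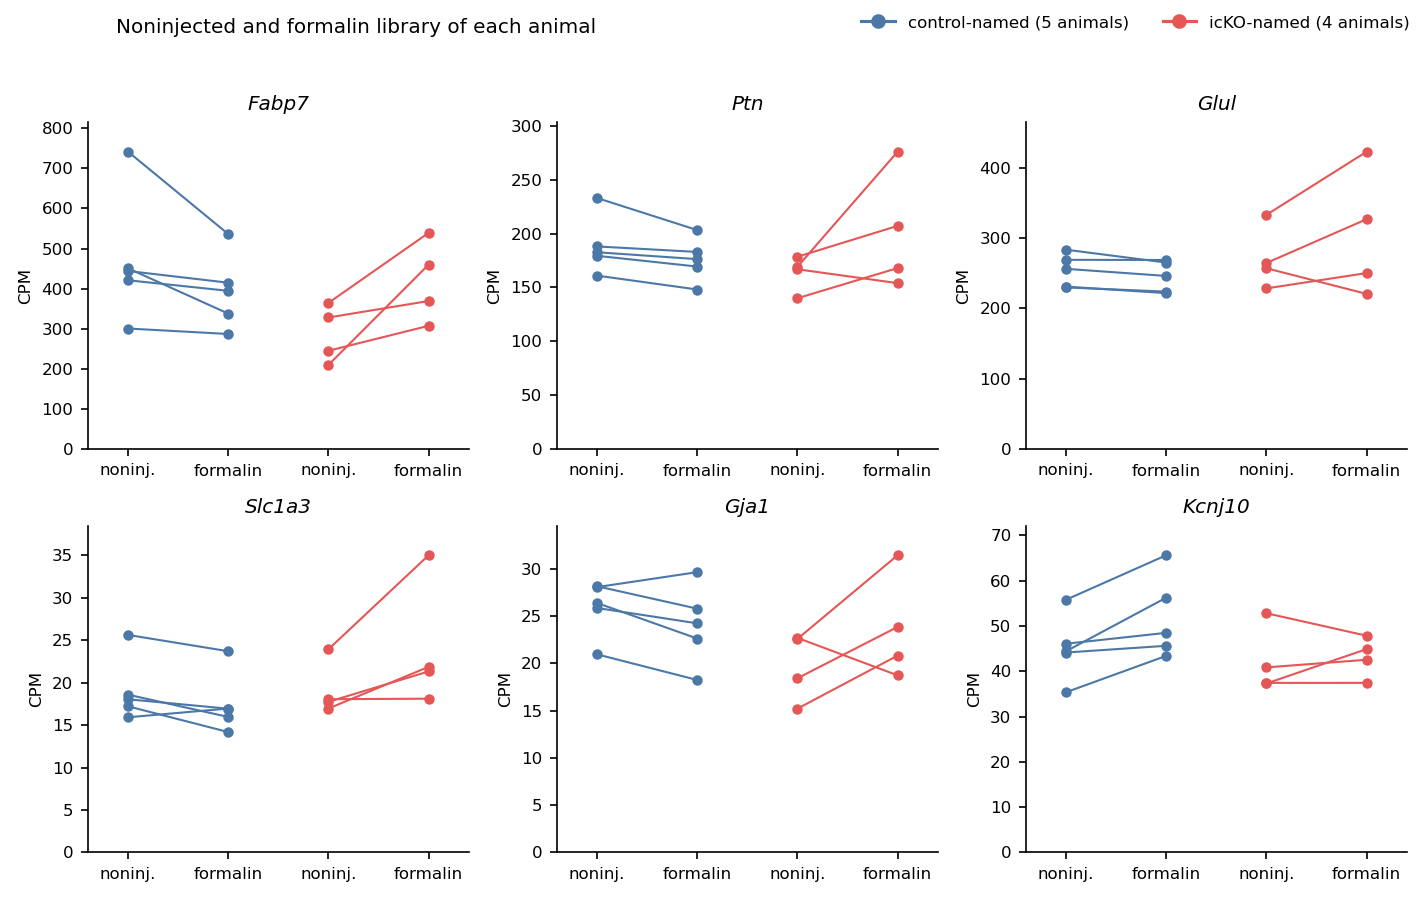
CPM of 6 markers in the noninjected and the formalin library of each animal, joined by a line, for 5 control-named (blue) and 4 icKO-named (red) animals. Fabp7 falls along 5 of 5 blue lines and climbs along 4 of 4 red lines, and Kcnj10 climbs along 5 of 5 blue lines.

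Markers of other cells had interactions of the same sign as Fabp7 and Ptn. The interaction was positive for 11 of 11 macrophage markers (median log2 0.76), 8 of 8 fibroblast markers (1.01), 8 of 8 endothelial markers (0.44) and 14 of 15 Schwann cell markers (0.28). Larger medians than most of these were found for 8 of 8 skeletal muscle (5.12), 7 of 7 neutrophil (1.18) and 7 of 7 erythroid markers (1.09), all positive. It was negative for 12 of 12 neuron markers (median -0.48). The summed macrophage level was 302 to 507 CPM in control-named and 373 to 1080 CPM in icKO-named formalin libraries. Among formalin libraries the summed macrophage, fibroblast, muscle and erythroid levels were highest in male174, and the neutrophil level in male159. No marker of these lists passed the test of the interaction, and their part in the values of the members was not tested.

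Other genes of satellite glia and the glial lineage were read from a list of 18. In noninjected libraries 3 fell and 0 rose in icKO-named animals, with a median log2 difference of -0.10. The share of all genes called was 8.39% there and 3.89% in formalin libraries. Cdh19, a cadherin of neural crest glia, fell from 164 ± 10.2 to 107 ± 14.6 CPM (SD, n = 5 and 5; log2 difference -0.64, SE 0.14, adjusted p = 0.0106 in edgeR). Its groups did not overlap, with 152.5 CPM the lowest control-named value and 123.7 CPM the highest icKO-named, and its call held in 10 of 10 fits without 1 animal. Cd9, a tetraspanin, fell by 0.24 on the log2 scale (SE 0.07, adjusted p = 0.0382 in edgeR), and this call held in 2 of 10 such fits, those without female159 or male124. In the 6 animals with 1 recorded genotype the adjusted p was 0.0715 for Cdh19 and 0.0757 for Cd9. In formalin libraries Cdh19 was at -0.05, and Bcan, the matrix proteoglycan brevican, was the member of the list that fell (-0.51, SE 0.11, adjusted p = 0.0232 in edgeR). The call of Bcan was lost without male122, male126, female165, male159 or male174.

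In the list of 16 genes of the glutamate cycle and potassium buffering, 1 rose and 2 fell in noninjected libraries. The share of all genes called was 8.39% there and 3.89% in formalin libraries. Kcnj3, a G protein gated potassium channel subunit, rose by 0.43 (SE 0.11). Slc12a2, the chloride importer NKCC1, fell by 0.34 (SE 0.09) and Kcnn3, the small-conductance calcium-activated potassium channel SK3, by 0.78 (SE 0.21). Kcnn3 also fell in formalin libraries, by 1.00 (SE 0.23), from 6.26 ± 0.60 to 2.99 ± 1.32 CPM (SD, n = 5 and 4). Their adjusted p-values in edgeR were 0.0258, 0.029, 0.0293 and 0.0249. Without 1 animal the calls held in 6, 4, 4 and 5 of 10 fits. In noninjected libraries all 3 were lost without female160, male122 or female161, Kcnj3 and Kcnn3 also without male126, Slc12a2 and Kcnn3 also without female162 or female165, and Slc12a2 also without male159. In formalin libraries Kcnn3 was lost without male122, male126, female165, male159 or male174. The median of the list was 0.06 in noninjected and 0.07 in formalin libraries. Slc1a2, the transporter that in the brain works beside Slc1a3, was at 0.12 (SE 0.12) in noninjected libraries.

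Of 10 gap junction and pannexin genes, Panx2, a pannexin channel gene, rose by 0.63 (SE 0.18, adjusted p = 0.0336 in edgeR) in noninjected libraries, from 34.8 ± 3.38 to 52.1 ± 13.2 CPM (SD, n = 5 and 5), and 0 fell. Of 17 genes of lipid transport and binding, 2 rose and 0 fell in noninjected libraries, among them the cholesterol exporter Abcg1, which rose by 0.44 (SE 0.11, adjusted p = 0.0252 in edgeR). Sdc1, the heparan sulphate proteoglycan syndecan 1, was the gene past the threshold among 12 of the endothelin and pleiotrophin pathways, with 0.49 (SE 0.10, adjusted p = 0.00944 in edgeR) in noninjected and 0.39 (SE 0.11, adjusted p = 0.0487 in edgeR) in formalin libraries. The noninjected Sdc1 call held in 10 of 10 fits without 1 animal, and that of Panx2 in 4 and of Abcg1 in 7. Panx2 was not called without female160, male122, male126, female161, female162 or female165. Abcg1 was not called without female160, male122 or female161. The formalin call of Sdc1 held in 3 of 10 fits, those without female160, female161 or male174. Of all genes, 8.39% were called in noninjected and 3.89% in formalin libraries, and the noninjected counts of these 3 lists were close to that share. The median log2 differences of these 3 lists in noninjected libraries were 0.15 (gap junction), -0.17 (lipid) and -0.05 (endothelin and pleiotrophin).

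Of 21 tested genes of glial reactivity, 2 rose and 2 fell in noninjected icKO-named libraries, with a median log2 difference of -0.25. The share of all genes called was 8.39% there and 3.89% in formalin libraries. Stat3, the transcription factor of cytokine signalling, rose by 0.41 (SE 0.10) and the chemokine gene Cxcl10 by 1.25 (SE 0.33). Nes, the intermediate filament nestin, fell by 0.44 (SE 0.13) and P2rx7, an ATP-gated channel described in satellite glia, by 0.32 (SE 0.09). In formalin libraries the complement gene C3 rose by 1.58 (SE 0.39) and the protease inhibitor gene Serpina3n fell by 0.53 (SE 0.10, adjusted p = 0.0109 in edgeR). The call of Nes held in 1 of 10 fits without 1 animal (male174), and that of P2rx7 in 3 (male122, male124 and male174). Stat3 was lost without female160, male122 or female161, and Cxcl10 without these, male126 or female162. Serpina3n was lost without male122, male126 or male159, and C3 without these, female165 or male174. No gene of these 6 lists passed in either formalin comparison, the interaction or the sex comparison.

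**Figure D5:**
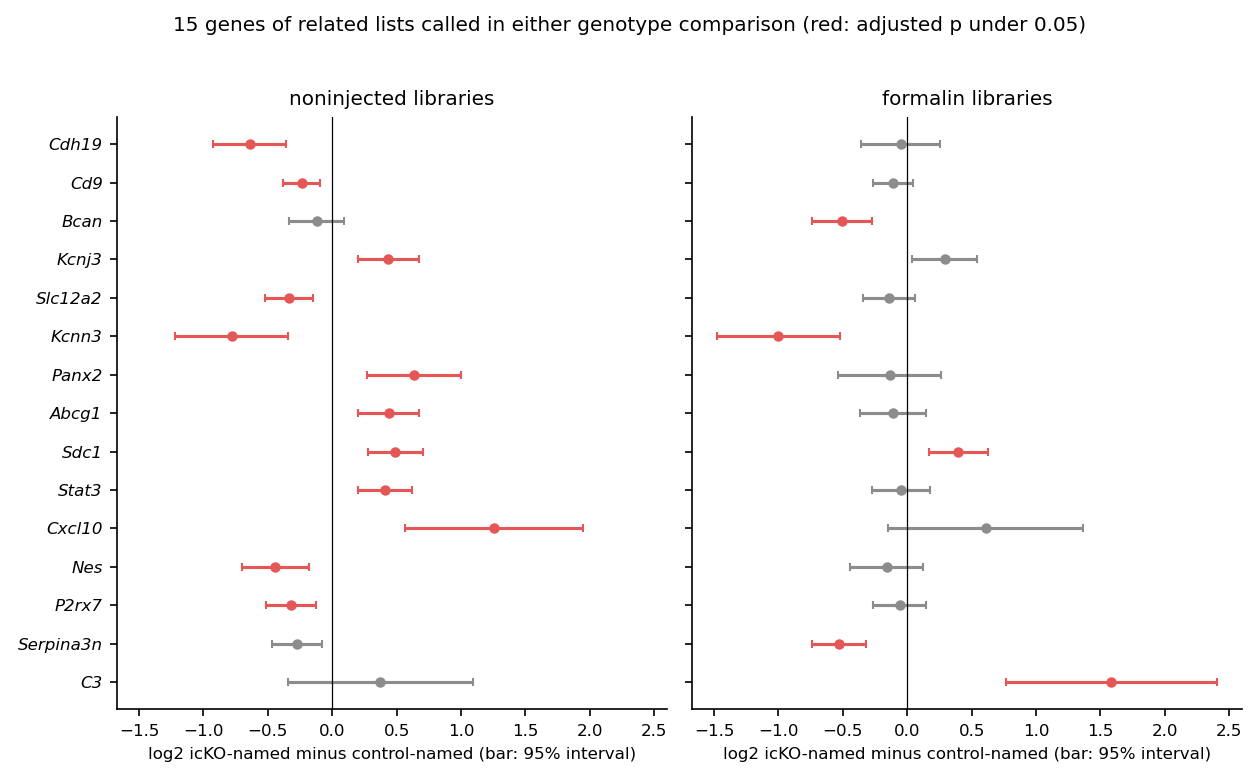
Log2 difference of icKO-named minus control-named libraries with its 95% interval, for 15 genes of the 6 related lists that passed in either condition, with those past an adjusted p of 0.05 in red. Cdh19 lies at -0.64 in noninjected and at -0.05 in formalin libraries.

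Cdh19 differed between genotypes in noninjected libraries and was near 0 in formalin libraries, and this difference itself did not pass. The interaction was 0.59 for Cdh19 (SE 0.19, adjusted p = 0.123 in edgeR). Among the Schwann cell markers, the myelin-associated genes Ncmap (-0.58, SE 0.16), Mal (-0.44, SE 0.12) and Drp2 (-0.45, SE 0.14) fell in noninjected libraries, and Ngfr, the low-affinity neurotrophin receptor that neurons also express, rose (0.54, SE 0.15). Without 1 animal these calls held in 4, 3, 3 and 5 of 10 fits, and each was lost without female160, male122 or female161 among others.

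Sex was compared in the 10 noninjected libraries, 5 male and 5 female, with the named genotype in the model. In edgeR 0 of 9 members passed (1 with an unadjusted p under 0.05, and DESeq2 called 0), and 0.0634% of all genes did (11 of 17347). An unadjusted p under 0.05 in edgeR was found for 1185 of the 17347 genes. Gja1 had the smallest p of the members, with a log2 difference of male minus female of -0.23 (SE 0.11, adjusted p = 0.725 in edgeR). Glul was at 0.16 (SE 0.10) and Ptn at 0.15 (SE 0.10), and the other 6 lay between -0.03 and 0.11. The 95% interval of the sex difference ran from -0.59 to 0.53 for Fabp7 and from -0.95 to 1.02 for Gfap.

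The members were last compared with each other across the 10 noninjected libraries, in log2 CPM. Of 36 pairs 24 had a positive Pearson r (median 0.235), and 0 pairs passed after Benjamini-Hochberg adjustment over the 36 (permutation test, 100000 resamples, two-sided). The closest pair was Kcnj10 and Ednrb, with r = 0.731 (permutation p = 0.0182, adjusted 0.351) and rho = 0.721 (permutation p = 0.0235, adjusted 0.423). Their r was 0.595 without the 2 libraries farthest from the median of Kcnj10. Slc1a3 was next, with r = 0.693 to Ednrb (permutation p = 0.023, rho = 0.77 with permutation p = 0.0126).

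The genes whose level over the 10 noninjected libraries was most like the mean z score of the 9 members were listed as a description. Of 13326 genes, Dnaic2 (r = 0.947), mt-Rnr2 (0.889), Tmed10 (0.871), Mrpl42 (0.855) and Mettl18 (0.844) came first, followed by Pcp4 (0.837), Evi2a (0.833) and Terf2 (0.831). None of these is a member of the lists read here. The mean z score was highest in male122 (1.28), and lay between -0.75 (male124) and 0.36 (female161) in the other 9 animals.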

How the data were processed

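Gene counts of 20 libraries were used as deposited. The tools named in the submitters' processing notes are STAR 2.7.8a, featureCounts 2.0.1 and bcl2fastq 2.20.0.422, with GRCm39 as the build, and per the labels' protocols the mRNA libraries were non-stranded and made from TRIzol extracts. The sources used here do not give the annotation release or the handling of multimapping reads, and without strand overlapping and antisense genes cannot be told apart. Ensembl IDs were matched to symbols for 52083 of 55416 rows with the reference's gene table.

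The 19 libraries of over 1000000 counts entered a single fit (R 4.3.3, edgeR 4.0.16: TMM, filterByExpr, robust quasi-likelihood F test) with 4 groups, deposited genotype word by agent, and a sex term. Benjamini-Hochberg adjustment ran over all genes tested, with a threshold of 0.05. The fit has no term for the animal, so both libraries of an animal enter as independent samples. Genotype follows the deposited names, and the titles are an alternative. CPM are counts per 1000000 of the TMM-scaled library total, and exon lengths are the union of GENCODE M21 exons (GRCm38, not the build of the counts). DESeq2 1.42.0 is an alternative. The genotype test in noninjected libraries was checked on simulated counts drawn without an effect of the animal. That check does not cover the formalin and interaction tests.

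Pairing of formalin and noninjected libraries comes from the animal number in the deposited names. Deviations from group means correlated between the 2 libraries of an animal from 0.021 (female159) to 0.4, over 0.1 in 8 of 9 animals.

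The members and lists were chosen with earlier results of these data known. Named genes are the 9 members, Prdm12, up to 4 called genes with the smallest p per list and comparison, and the 8 genes most like the members' mean above a mean log2 CPM of 1. Slc1a2 was added after its values were seen. Some listed genes are counted in their lists but not reported here by name.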

Additional observations from a re-analysis of the deposited data

Results flagged for a closer look

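In 36 group values tested for a sample far from the others, 2 stood apart, a share near the 1 in 20 that chance gives. Slc1a3 in control-named noninjected libraries was highest in male122 at 25.6 CPM, with the gap to the next library 0.726 of the group's range against a critical 0.71. Ednrb in icKO-named formalin libraries was highest in male174 at 118 CPM, with a gap of 0.882 against a critical 0.829. The formalin change of Fabp7 differed in direction between all control-named and all icKO-named animals, with an interaction of 0.73 on the log2 scale (unadjusted p = 0.0484, adjusted p = 0.211 in edgeR).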

How the results depend on the processing

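Of 1026 member values under 21 alternative settings, 15 were past the threshold, 0 of them with the other sign, and 92 values that were not called had the other sign. In noninjected libraries between genotypes DESeq2 called 1 member (Fabp7), the fit without a low count filter 3 (Fabp7, Gja1 and Ptn), and fits without 1 animal 0 to 1. In formalin libraries the 6 agreeing animals gave 2 (Glul and Gfap) and the replicate block by title number 3 (Glul, Gja1 and Slc1a3). In that block only title number 5 holds both named genotypes, so it rests on male126 and male174. Without the filter 2 members, Fabp7 and Gfap, were called for formalin in icKO-named animals and 2, the same genes, for the interaction. The animal as a replicate block called 0 members and 0 genes in both formalin comparisons and the interaction. Without the male174 formalin library, or without that and the male159 one, 0 members were called. The cause of these shifts was not tested.

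Counts over all genes moved more. Between genotypes in noninjected libraries, 1504 became 2421 without the filter, 0 by title, 831 in the 6 animals, 101 with the title number block, 2385 without the male174 formalin library, 2596 without that and the male159 formalin library, and 345 to 2129 without 1 animal. In formalin libraries 697 became 1226 with DESeq2, 2129 without the filter, 1052 without the sex term, 29 in a fit of these libraries alone, 205 without the male174 formalin library, 73 without both, 0 by title, 1615 in the 6 animals, 2351 with the number block, and 66 to 1485 without 1 animal. Formalin in control-named animals gave 2 with DESeq2 and 430 without the filter. In icKO-named animals it gave 1106, 2203 and, in the 6 animals, 448, with 0 to 1990 without 1 animal. The interaction gave 793, 2519 and 65, and 0 to 1762. Sex gave 35 with DESeq2, 391 without the filter and 7 to 15 without 1 animal. Of 780 values of Prdm12 and the called genes of other lists, 430 stayed called, 348 did not, and 2 changed sign, both by title (Nes 0.012 in noninjected and Sdc1 -0.074 in formalin libraries). Gfap, at 20 to 137 counts per library, has the least precise values.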
